A study of Mus musculus with 6 samples.

Results

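GIMAP genes (GTPases of immunity-associated proteins) encode a family of GTP-binding proteins of lymphocytes. The mouse members Gimap1, Gimap3, Gimap4, Gimap5, Gimap6, Gimap7, Gimap8 and Gimap9 were taken by gene symbol from a deposited table of read counts for 55487 genes, which held all 8. RNA had been sequenced from live cells that were sorted from small intestinal epithelium, and all donors were wild-type C57BL/6J mice. The B220+CD3ε+CD45+ cells, labelled X cells, and the B220−CD3ε+CD45+ cells, labelled T cells, had 3 libraries each. CD3ε belongs to the signalling part of the T cell receptor, CD45 is a phosphatase of all leukocytes, and B220 is the CD45 isoform by which B cells are usually recognised. The labels name no treatment and no age. They do not say whether each library had its own mouse, and the p-values below therefore measure a spread between libraries that may be technical.

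GIMAP proteins share a GTP-binding domain that resembles that of septins and dynamins, and most sit on membranes inside the cell or are recruited to them. The family is best known for lymphocyte survival. Rats and mice without a working Gimap5 lose most peripheral T cells, and mice without Gimap1 in lymphocytes lose mature T and B cells. The genes lie side by side in 1 cluster and are read mainly in lymphocytes, with some also read in endothelium.

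The members' transcripts were abundant and differed little between the B220+ and the B220− cells. None of the 8 was called different by edgeR's quasi-likelihood test, and 1 had an unadjusted p under 0.05. Over all genes tested, 11.1% were called and 22.4% had an unadjusted p under 0.05, so counts this low among 8 genes are near the background and do not set the family apart. The fitted ratios of B220+ to B220− cells had 95% intervals that stayed between 0.793 and 1.16 for every member. Gimap9 was the member with the lowest ratio and the only one whose libraries did not overlap between the groups, as was the case for 28.1% of all genes tested. It passed the threshold only in an alternative fit that matched libraries by replicate number, in which 17.5% of all genes tested were called. Sharp differences were present nearby: Tmem176a and Tmem176b, 70.1 and 63.0 kb beyond the cluster, were 18.6-fold and 22.7-fold lower in B220+ cells. The B220+ libraries held only 18 and 17 reads of them in all. Of 12 conventional T cell receptors and coreceptors, 11 were called lower in B220+ cells, beside 5.56% of all genes tested.

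The cluster spans chr6:48647234-48770851 in the mm10 build, or 123.6 kb. Along the chromosome the members follow in the order Gimap8, Gimap9, Gimap4, Gimap6, Gimap7, Gimap1, Gimap5 and Gimap3, of which Gimap6 and Gimap3 lie on the minus strand and the others on the plus strand. Gimap8 (ENSMUSG00000064262) runs from 48647234 to 48660875, Gimap9 (ENSMUSG00000051124) from 48676129 to 48679114 and Gimap4 (ENSMUSG00000054435) from 48684549 to 48692060. In the middle lie Gimap6 (ENSMUSG00000047867) from 48701582 to 48708225 and Gimap7 (ENSMUSG00000043931) from 48718621 to 48724636. Gimap1 (ENSMUSG00000090019) runs from 48739054 to 48743795, Gimap5 (ENSMUSG00000043505) from 48746197 to 48754210 and Gimap3 (ENSMUSG00000039264) from 48764464 to 48770851. The shared feature of their coding sequences is the P-loop, the stretch that holds the phosphates of the bound nucleotide. It was searched in the translated GENCODE M21 coding sequences as a glycine, any run of 4 residues, a glycine, a lysine and then a serine or threonine. Every member held it, and Gimap8, the longest with 2067 coding bases, held it 3 times. The protein is known for its triple GTPase domain. The P-loop codons are shown because binding of GTP is the shared activity of the family, with the codons of the invariant residues in capitals.
Gimap8, codons 55 to 62: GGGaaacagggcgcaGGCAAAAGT
Gimap8, codons 291 to 298: GGGaagcgtggtgttGGGAAAAGT
Gimap8, codons 482 to 489: GGAaggagtggggctGGAAAGAGT
Gimap9, codons 15 to 22: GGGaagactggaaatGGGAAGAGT
Gimap4, codons 37 to 44: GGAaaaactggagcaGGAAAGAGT
Gimap6, codons 110 to 117: GGGaaaacaggaagcGGGAAAAGT
Gimap7, codons 15 to 22: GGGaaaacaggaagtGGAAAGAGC
Gimap1, codons 33 to 40: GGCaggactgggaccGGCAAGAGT
Gimap5, codons 33 to 40: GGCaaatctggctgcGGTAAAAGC
Gimap3, codons 29 to 36: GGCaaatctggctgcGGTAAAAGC
The P-loop codons of Gimap5 and Gimap3 were the same in every base.

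Gimap5 and Gimap3 were also the closest pair over their whole coding sequences, with 90.3% of 898 aligned bases identical. The other 20 pairs of members without Gimap8 had 55.9% to 68.0% identical bases. This matters for the counts, because a short read from an identical stretch cannot be placed in 1 of the genes. The longest such stretch had 140 bases, Gimap5 coding bases 187 to 326 and Gimap3 coding bases 175 to 314, whereas none of those 20 pairs shared more than 17 bases in a row.
Gimap5 and Gimap3: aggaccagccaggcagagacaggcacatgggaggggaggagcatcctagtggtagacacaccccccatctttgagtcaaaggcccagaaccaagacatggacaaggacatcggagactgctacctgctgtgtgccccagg
Of the distinct 50-base words in the transcripts, 4.53% of those of Gimap5 and 7.52% of those of Gimap3 occurred in the other gene, and none was shared among the other 6 members. How reads with several matches were counted is not given in the sources used here. Gimap3 had 7.48 to 9.18 times the count of Gimap5 in the 6 libraries, so a read placed in the wrong gene weighs more in the count of Gimap5.

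Annotated models also overlap some members. Gimap1os, a non-coding transcript on the opposite strand, covers 1107 of the 3073 exonic bases of Gimap1 (36.0%), and its count was 34.4% to 37.4% of that of Gimap1. Gm28053, a protein-coding model on the same strand, shares 81 exonic bases with Gimap7, 198 with Gimap1 and 153 with Gimap5. Its count was 7.78% to 8.91% of that of Gimap5. The libraries were made with a directional kit, per the labels, but whether the counting used strand is not stated, so Gimap1 and Gimap1os cannot be told apart in the bases they share.

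The libraries held 11810859, 39591312 and 14173322 counts in B220+ replicates 1, 2 and 3, and 18773165, 17753655 and 11320363 counts in B220− replicates 1, 2 and 3. Each library pools many cells, so fewer cells of a type and less RNA per cell cannot be told apart. The T cell identity genes were present throughout. Cd3e averaged 1361 ± 56.4 CPM (normalised counts, scaled to a common library size) in B220+ cells and 1214 ± 13.7 CPM in B220− cells (SD, n = 3 each), with 25.5% as many counts in an overlapping opposite-strand gene. Of the 10 T cell identity genes, all tested, edgeR called 1 higher (Cd8a) and 1 lower (Cd247) in B220+ cells. Cd247 averaged 166 ± 9.01 CPM in B220+ cells and 236 ± 22.9 CPM in B220− cells, with an adjusted p of 0.00107 by edgeR. Of 12 B cell markers, 7 stayed under 1 CPM in every library, Ms4a1 among them. Cd79b averaged 31.7 ± 1.8 CPM in B220+ cells and 27.4 ± 4.37 CPM in B220− cells. The 12 B cell markers summed to 257 to 327 CPM in B220+ libraries and 154 to 227 CPM in B220− libraries, mostly from Ighm. Of 12 endothelial markers, none passed the filter on low counts, and Emcn, Kdr, Robo4, Tek and Tie1 had no count in any library. The endothelial sum was 0.755 to 0.99 CPM in B220+ libraries and 0.377 to 0.623 CPM in B220− libraries. The 12 macrophage and dendritic cell markers, with Itgax among them, summed to 389 to 537 CPM in B220+ libraries and 254 to 328 CPM in B220− libraries. The 12 intestinal epithelial markers summed to 325 to 384 CPM in B220+ libraries and 296 to 364 CPM in B220− libraries, and the 12 innate lymphoid and natural killer cell markers to 1005 to 1122 CPM in B220+ libraries and 413 to 658 CPM in B220− libraries. These sums do not speak for each marker. Of 10 innate lymphoid and natural killer cell markers tested, edgeR called 2 higher and 4 lower in B220+ cells. Of 5 macrophage and dendritic cell markers tested, 0 were called higher and 1 lower. Of 10 intestinal epithelial markers tested, 0 were called. Over all genes tested, 5.58% were called higher and 5.56% lower. The fit with the replicate block, which called 17.5% of all genes tested, called 1 macrophage and dendritic cell marker higher and 1 lower, and 1 epithelial marker lower. Itgax (adjusted p 0.0554 by edgeR) was called without B220+ replicate 1 (0.0485) or B220+ replicate 3 (0.0349). Without B220− replicate 1, Epcam (0.000216) and Fcer1g (0.000143) gained a call and Klri2 (0.0792) lost it. Of 4 B cell markers tested, 0 were called by the main edgeR fit. Ighm and Ighd were called higher with the replicate block (adjusted p 8.41e-07 and 0.000452) and by DESeq2 (adjusted p 0.0204 and 4.09e-05). In the edgeR fit both were called without B220− replicate 2 (0.0058 and 0.000937), and Ighm without B220− replicate 1 (0.0411). The part of all these markers in the GIMAP levels was not tested.

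The cells' GIMAP transcripts together took 0.452%, 0.43% and 0.434% of all counts in B220+ replicates 1, 2 and 3, and 0.465%, 0.441% and 0.437% in B220− replicates 1, 2 and 3. The summed level was 4386 ± 127 CPM in B220+ cells and 4490.3 ± 194 CPM in B220− cells (SD, n = 3 each), a ratio of 0.977. In both groups the library with the highest sum was replicate 1, and the ranges overlapped.

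**Figure D1:**
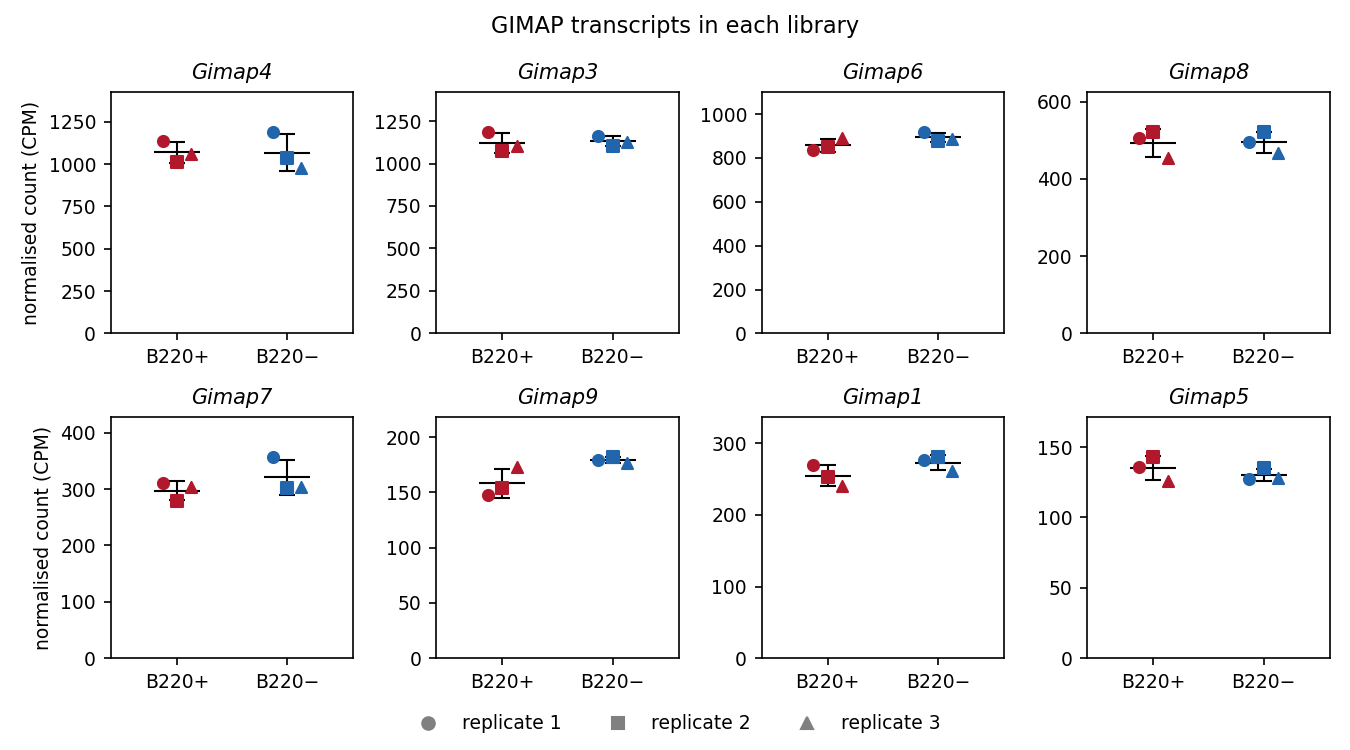
Normalised count (CPM, linear axes from 0, each panel with its own scale) of each GIMAP gene in the 3 B220+ and 3 B220− libraries, with marker shapes for the replicate numbers and bars for the mean and SD. The groups overlap in every panel except Gimap9, where the B220+ libraries sit between 148 and 173 CPM and the B220− libraries between 177 and 182 CPM.

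Gimap5 is the member most closely tied to survival of resting T cells, and it had the lowest level of the 8. It stood at 136, 143 and 126 CPM in B220+ replicates 1, 2 and 3, and at 127, 135 and 128 CPM in B220− replicates 1, 2 and 3. The B220+ libraries included both the highest and the lowest of the 6 values, and the groups overlapped. The fitted log2 fold change, B220+ minus B220−, was 0.058 (SE 0.07), with a ratio between 0.937 and 1.16 at 95%, and edgeR's quasi-likelihood test gave an adjusted p of 0.711. Gimap3, its close paralog, had 1184, 1071 and 1102 CPM in B220+ cells and 1164, 1104 and 1124 CPM in B220− cells. The B220− values lay inside the range of the B220+ values. Its log2 fold change was −0.015 (SE 0.072), with a ratio between 0.888 and 1.1 and an adjusted p of 0.939 in the edgeR test.

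Gimap1, which mature T and B cells of mice require, had 270.1, 253 and 241 CPM in B220+ libraries and 277, 281 and 261 CPM in B220− libraries. The groups overlapped through B220+ replicate 1 and B220− replicate 3. The log2 fold change was −0.1 (SE 0.068), with a ratio between 0.842 and 1.03 and an adjusted p of 0.452 in the edgeR test. The overlapping transcript Gimap1os gave nearly the same difference, with 91.4 ± 6.58 CPM in B220+ cells against 97.4 ± 7.72 CPM in B220− cells and a log2 fold change of −0.094 (SE 0.081, adjusted p 0.566 by edgeR).

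Gimap4, which in rodents influences the pace of T cell death, had 1137, 1014 and 1060.2 CPM in B220+ libraries and 1188, 1035 and 979 CPM in B220− libraries. The spread among the B220− libraries was the widest of any member, with a coefficient of variation of 10.1%, and both groups had their highest value in replicate 1. The log2 fold change was 0.0034 (SE 0.086), with a ratio between 0.881 and 1.14 and an adjusted p of 0.988 by edgeR. Its sign was negative without B220+ replicate 1 (−0.041), B220− replicate 2 (−0.019) or B220− replicate 3 (−0.055), so the data set no direction for Gimap4.

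Gimap6 binds GABARAPL2, a protein of the ATG8 family that acts in autophagy. It had 835, 848 and 889 CPM in B220+ libraries and 917, 878 and 886 CPM in B220− libraries. The groups overlapped through B220+ replicate 3 alone, and the log2 fold change was −0.06 (SE 0.068), with a ratio between 0.866 and 1.06 and an adjusted p of 0.686 by edgeR. Gabarapl2 itself averaged 68.9 ± 6.38 CPM in B220+ cells and 71.9 ± 4.38 CPM in B220− cells (SD, n = 3 each), with an adjusted p of 0.72 by edgeR.

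Gimap7, whose human form hydrolyses GTP when it dimerises, had 310.2, 279 and 303 CPM in B220+ libraries and 357, 302 and 304 CPM in B220− libraries. Replicate 1 was the highest in both groups, and B220− replicate 1 stood apart above the other 5 values. The log2 fold change was −0.11 (SE 0.08), with a ratio between 0.821 and 1.04 and an adjusted p of 0.473 by edgeR. Without B220− replicate 1 the log2 fold change of Gimap7 was −0.026. Gimap8, with its triple P-loop, had 507, 521 and 453 CPM in B220+ libraries and 497, 521 and 467 CPM in B220− libraries. The replicates ranked the same way in both groups, with replicate 2 highest and replicate 3 lowest. Its log2 fold change was −0.0049 (SE 0.076), with a ratio between 0.89 and 1.12 and an adjusted p of 0.979 by edgeR.

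Gimap9 had 148, 154 and 173 CPM in B220+ libraries and 179, 182 and 177 CPM in B220− libraries. All 3 B220+ values lay under all 3 B220− values, with a gap of a few CPM between B220+ replicate 3 and B220− replicate 3. A gap of this kind, in the lower direction, was found for 13.9% of all genes tested and in either direction for 28.1%, so 1 of 8 members is not above the background. The mean was 158 ± 12.9 CPM in B220+ cells and 179 ± 2.55 CPM in B220− cells (SD, n = 3 each), or 1.13-fold lower in B220+ cells. The log2 fold change was −0.18 (SE 0.072), with a ratio between 0.793 and 0.983, an unadjusted p of 0.0262 and an adjusted p of 0.146 in the edgeR test. When replicate numbers entered as a block, the same log2 fold change of −0.18 had an adjusted p of 0.0435, and 8.6% of all genes tested were called lower in that fit. Gimap9 was not called by DESeq2 (adjusted p 0.185), and its adjusted p lay between 0.0668 and 0.388 with each library left out in turn.

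Across the family, edgeR's quasi-likelihood test called 0 of 8 members under an adjusted p of 0.05, DESeq2 called 0 and limma voom called 0, and the fit with the replicate block called 1, beside 17.5% of all genes tested. Gimap9 was the 1 member with an unadjusted p under 0.05, a share of 22.4% over all genes tested. By sign, 6 members were lower and 2 higher in B220+ cells, with a median log2 fold change of −0.037 against −0.0074 over all 14722 genes tested. The median size of the log2 fold change, whatever its sign, was 0.059 for the members, 0.15 for all genes tested and 0.096 for the 2359 genes with a mean of at least 100 CPM. Members are highly counted, and precision rises with the count, so the genes of at least 100 CPM are the closer match. The 95% interval lay within a 1.5-fold change either way for 8 of 8 members, for 60.5% of all genes tested and for 89.7% of the genes of at least 100 CPM. The highest of a member's 6 library values was 1.1 to 1.28 times its lowest (median 1.16), against a median of 1.38 over all genes tested and 1.2 over those of at least 100 CPM.

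The replicate number of a member's highest library was compared between the groups. For 5 of 8 members the library with the highest level had the same number in both groups, replicate 1 for Gimap3, Gimap4 and Gimap7 and replicate 2 for Gimap5 and Gimap8. The same held for 6423 of 14722 genes tested (43.6%), and a count of 5 among 8 genes does not set the family apart from that share. The remaining members had their highest level in B220+ replicate 3 and B220− replicate 2 (Gimap9), B220+ replicate 3 and B220− replicate 1 (Gimap6), and B220+ replicate 1 and B220− replicate 2 (Gimap1).

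The members were compared with each other as log2 ratios within a library, which removes any difference in scaling between libraries. Of the 28 pairs, 4 had ratios that did not overlap between the groups, while this held for 40.6% of all pairs of genes with a mean of at least 100 CPM. In B220+ cells relative to B220− cells, Gimap1 was lower against Gimap5 by a log2 difference of −0.16, and Gimap9 was lower against Gimap6 by −0.12. Gimap4 was higher against Gimap7 by 0.11, and Gimap8 was higher against Gimap1 by 0.094. An exact two-sided permutation test of 3 against 3 libraries cannot give a p under 0.1, which these pairs reached, and the adjusted p over the 28 pairs was 0.7. The pair with the biggest difference, Gimap9 against Gimap5, had log2 ratios of 0.225 ± 0.19 in B220+ cells and 0.463 ± 0.034 in B220− cells, a difference of −0.24 with overlapping libraries and an exact permutation p of 0.2.

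Levels between genes were set side by side per exonic length, in TPM, a length-corrected level computed here that sums to the same total in every library. Gimap4 had the highest level, 1716 ± 71.5 TPM in B220+ cells and 1699 ± 134 TPM in B220− cells (SD, n = 3 each), which placed it at rank 51 of all genes. Gimap3 followed with 1279 ± 47.7 TPM in B220+ cells and 1284 ± 37.1 TPM in B220− cells, and Gimap6 with 723 ± 26.3 TPM in B220+ cells and 748 ± 18.1 TPM in B220− cells. These 3 genes made up most of the family's transcripts: Gimap4 took 33.6% of the family's TPM in B220+ cells and 32.7% in B220− cells, Gimap3 took 25.0% in B220+ cells and 24.7% in B220− cells, and Gimap6 took 14.1% in B220+ cells and 14.4% in B220− cells.

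Below them, Gimap8 had 393 ± 33.8 TPM in B220+ cells and 391 ± 15.3 TPM in B220− cells, and Gimap7 had 377 ± 13.5 TPM in B220+ cells and 404 ± 32.3 TPM in B220− cells. The ranges of Gimap8 and Gimap7 over the 6 libraries overlapped, and Gimap8 was above Gimap7 in 3 of the 6, so their order was not resolved. The ranges of the next neighbours also overlapped, but Gimap9 was above Gimap1 within each of the 6 libraries, Gimap9 with 284 ± 22.9 TPM in B220+ cells and 319.6 ± 6.85 TPM in B220− cells and Gimap1 with 244 ± 13.4 TPM in B220+ cells and 259.9 ± 5.25 TPM in B220− cells. Gimap1 shares 36.0% of its exonic bases with Gimap1os, and how reads there were counted is not stated, so the order of Gimap9 and Gimap1 may depend on it. Gimap5 came last with 96.2 ± 7.56 TPM in B220+ cells and 91.8 ± 3.77 TPM in B220− cells, at rank 1773 of all genes, and its highest library lay below the lowest library of every other member.

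**Figure D2:**
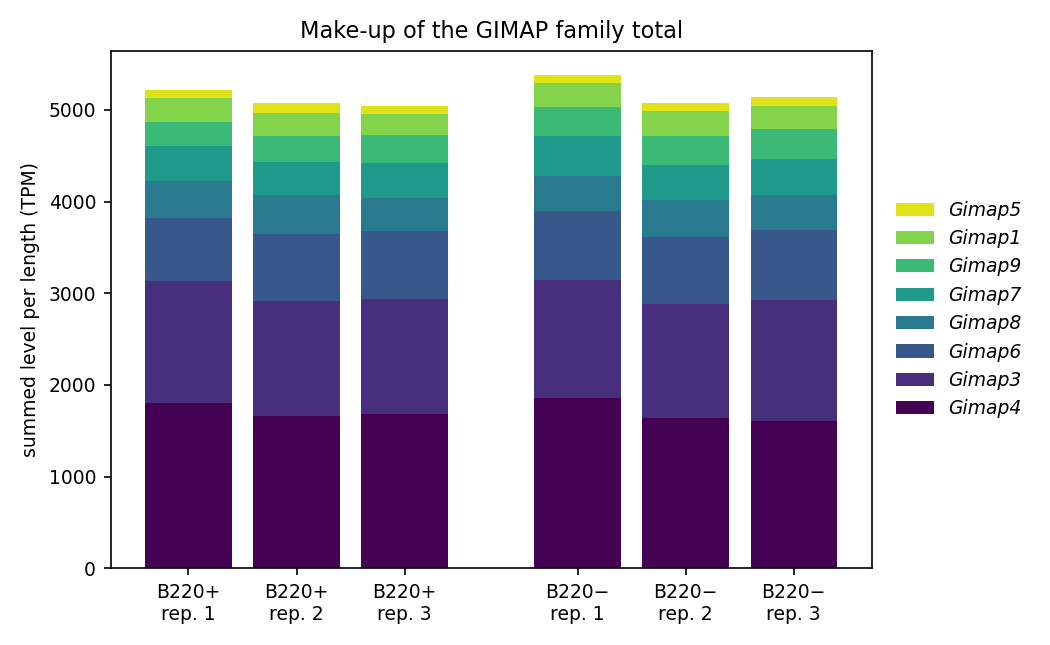
Summed level per length (TPM) of the 8 GIMAP genes in each B220+ and B220− library, with 1 colour per gene and Gimap4 at the bottom. The bars reach 5045 to 5223 TPM in B220+ libraries and 5076 to 5378 TPM in B220− libraries. The bands are stacked in 1 fixed gene order, and their thickness is alike in all 6 bars.

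Whether the flat pattern of the members extended along the chromosome was examined in the 41 other gene models that lay inside the cluster or within 250 kb of it, of which 17 passed the filter on low counts. Inside the cluster 4 of 5 models were tested and none was called: Gimap1os, Gm28053, Gm44226 and 4833403J16Rik had adjusted p-values of 0.566, 0.712, 0.952 and 0.857 by edgeR. Outside it 1 gene was called higher and 2 lower among 13 tested, beside 5.58% higher and 5.56% lower over all genes.

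Both lower genes lay on the far side of Gimap3. Tmem176b, a membrane protein of the endosomal system best known from dendritic cells and RORγt-positive lymphocytes, had 0.17, 0.252 and 0.354 CPM in B220+ libraries and 5.66, 5.61 and 6.91 CPM in B220− libraries. These values rest on 17 reads in B220+ cells and 283 reads in B220− cells, and the log2 fold change was −4.5 (SE 0.32, adjusted p 3.33e-06 by edgeR). Its paralog Tmem176a had 0.0848, 0.227 and 0.566 CPM in B220+ libraries and 5.55, 4.82 and 5.68 CPM in B220− libraries, with a log2 fold change of −4.21 (SE 0.4, adjusted p 2.85e-05 by edgeR). The values of Tmem176a rest on 18 reads in B220+ cells and 253 reads in B220− cells. The groups were far apart for both genes. The pair overlaps on opposite strands by 81 exonic bases, and reads there cannot be assigned to 1 of them if strand was not used.

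On the other side, 48.2 kb before Gimap8, the zinc finger gene Repin1 averaged 20.5 ± 2.34 CPM in B220+ cells and 14.7 ± 0.184 CPM in B220− cells (SD, n = 3 each), 1.39-fold higher in B220+ cells with an adjusted p of 0.0187 by edgeR. The call was lost without B220+ replicate 1 (0.0682), B220+ replicate 3 (0.0787) or B220− replicate 3 (0.0617). Zfp862-ps, with 19.5 ± 2.31 CPM in B220+ cells and 15.3 ± 2.24 CPM in B220− cells, had an adjusted p of 0.117 by edgeR and was called higher with the replicate block (adjusted p 0.0341) and without B220− replicate 2 (0.036). The opposite-strand gene Gm7887, which overlaps Zfp862-ps, had 43.9% as many counts. Krba1, Zfp467, Gm10243, Gm7887, Lrrc61, Rarres2, Zfp775, Gm38804 and AI854703 were tested and not called.

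**Figure D3:**
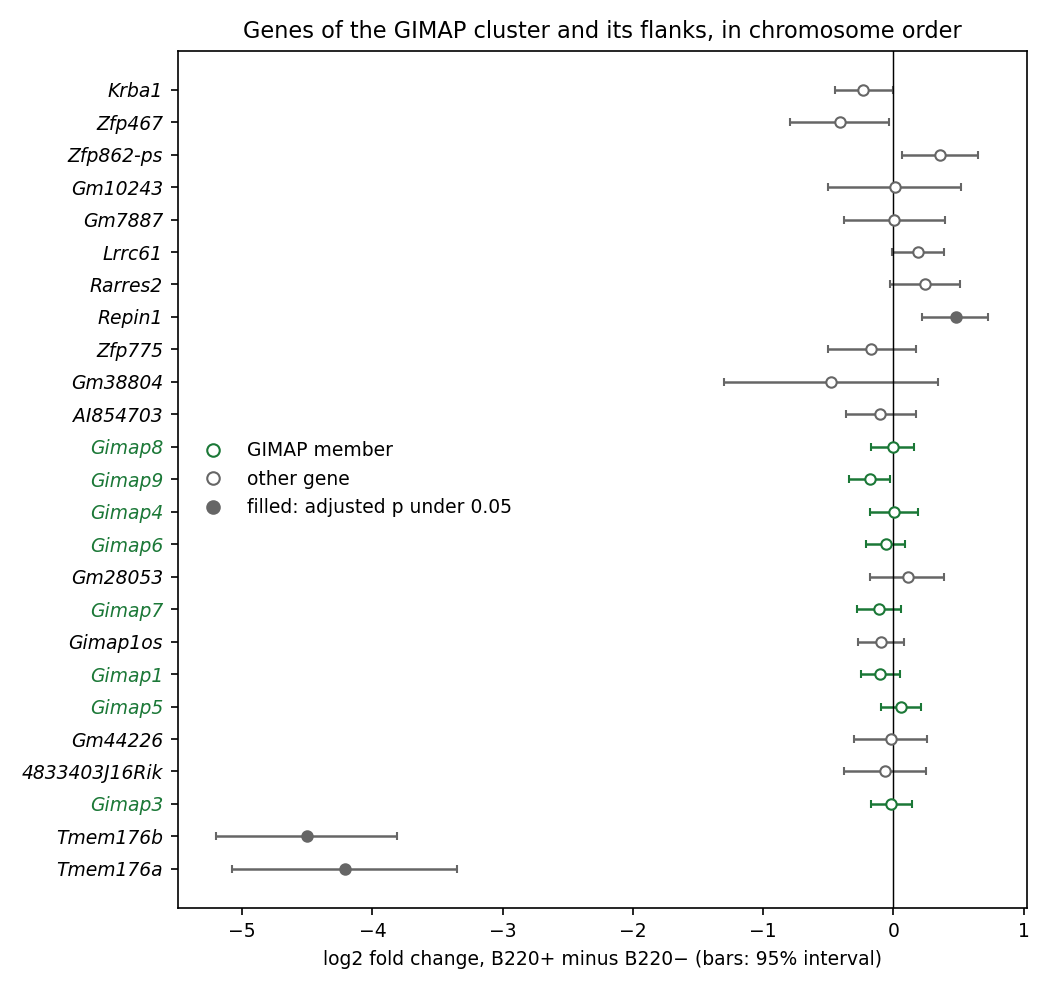
Log2 fold change (B220+ minus B220−) with its 95% interval for the tested genes of the GIMAP cluster and of 250 kb on either side, in chromosome order from top to bottom, with GIMAP genes in green and filled points for genes called. The members and the models between them lie close to 0, while Tmem176b and Tmem176a at the bottom lie at −4.5 and −4.21.

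The members were also set beside genes of the processes in which they act, in lists chosen with earlier results of these data known. Of 15 BCL2 family and survival genes, all tested, 1 was called higher and 2 lower in B220+ cells. Over all genes tested, 5.58% were called higher and 5.56% lower. The median log2 fold change of these 15 genes was 0.042. Bcl2l11, the pro-apoptotic activator BIM, averaged 201 ± 5.71 CPM in B220+ cells and 119 ± 19.5 CPM in B220− cells (SD, n = 3 each), 1.69-fold higher with an adjusted p of 7.14e-04 by edgeR. Bik, another BH3-only killer, had 1.21 ± 0.204 CPM in B220+ cells and 3.95 ± 1.46 CPM in B220− cells (log2 fold change −1.72, adjusted p 0.00508), and Pmaip1 (NOXA) had a log2 fold change of −0.39 (adjusted p 0.00237). The survival gene Bcl2 had 394 ± 28.5 CPM in B220+ cells and 235 ± 60 CPM in B220− cells, with groups that did not overlap and an adjusted p of 0.083, which was 0.00286 with the replicate block, 0.000265 without B220− replicate 1 and 0.0252 without B220− replicate 2. Opposite-strand reads amounting to 13.1% of its count could be mixed in. The block also added Bmf (adjusted p 0.00864), a further BH3-only gene, for 3 called higher in all. That fit called 17.5% of all genes tested in either direction.

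Of 16 ATG8 and autophagy genes, 1 was called higher and 0 lower, near the 5.58% higher and 5.56% lower over all genes tested, with a median log2 fold change of −0.003. Gabarapl1, an ATG8 protein, averaged 123 ± 7.09 CPM in B220+ cells and 95.5 ± 7.02 CPM in B220− cells (SD, n = 3 each), with an adjusted p of 0.00825 by edgeR that was 0.0537 without B220− replicate 3. An opposite-strand gene overlapping it had 28.6% as many counts. The cargo receptor Sqstm1 joined it only with the replicate block (adjusted p 0.018).

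Genes of naive and recirculating T cells, a state in which GIMAP genes are also well expressed, were examined next. The shares over all genes tested, for this list and the next, were 5.58% called higher and 5.56% called lower. Of 19 naive and recirculating T cell genes tested, 12 were lower and 2 higher in B220+ cells, with a median log2 fold change of −1.1. The lower ones were led by Igfbp4 at −7.18, the interleukin 6 receptor Il6ra at −6.28, the lymph node homing receptor Ccr7 at −5.18 and the egress receptor S1pr1 at −3.96. In B220+ libraries Igfbp4 had 6 reads in all, Il6ra 4 and Ccr7 37, and in B220− libraries Igfbp4 had 662, Il6ra 245 and Ccr7 1014. The 2 called higher were Il6st at 0.71 and Foxo1 at 0.31. Foxo1 lost its call without B220− replicate 3 (adjusted p 0.055). Tcf7 at −0.078 and Bach2 at −0.043 were not called. Il6ra overlaps an opposite-strand gene whose count exceeded 10% of its own. Of 12 conventional T cell receptors and coreceptors, 11 were lower and 0 higher, with a median of −3.3. Cd4 averaged 7.63 ± 0.839 CPM in B220+ cells and 177 ± 46.8 CPM in B220− cells (SD, n = 3 each), and Cd8b1 24.5 ± 4.89 CPM in B220+ cells and 215 ± 64.5 CPM in B220− cells. The costimulatory receptor Cd28 had 3.15 ± 0.766 CPM in B220+ cells and 62.0 ± 11.8 CPM in B220− cells, and the helper ligand Cd40lg had 2.04 ± 0.476 CPM in B220+ cells and 31.8 ± 5.2 CPM in B220− cells. Cd5, which dampens receptor signalling, had 9.97 ± 5.54 CPM in B220+ cells and 232 ± 64.3 CPM in B220− cells. Cd5 lost its call without B220+ replicate 2 (adjusted p 0.0505). Cd8a, by contrast, averaged 2810.3 ± 132 CPM in B220+ cells and 2184 ± 40.2 CPM in B220− cells, and it was called higher (adjusted p 0.00779 by edgeR) except without B220− replicate 3 (0.0537).

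Among 22 transcription factors of the T lineage, 8 were lower and 1 higher, beside 5.56% lower and 5.58% higher over all genes tested. Their median log2 fold change was −0.13. Myb had a log2 fold change of −1.68, Eomes −1.28 and Bcl11b −1.23, the last with 143 ± 7.27 CPM in B220+ cells and 335 ± 30.8 CPM in B220− cells. The factor called higher was Ikzf2 (Helios), with 550.4 ± 14.3 CPM in B220+ cells and 276 ± 32.7 CPM in B220− cells and an adjusted p of 1.27e-05 by edgeR. The lower count was 5 without B220+ replicate 2, without B220+ replicate 3 or without B220− replicate 3. An opposite-strand gene overlapping Myb had 20.6% as many counts. All of these lists and the GIMAP members were read from the same 6 libraries, and no test compared one list with another.

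**Figure D4:**
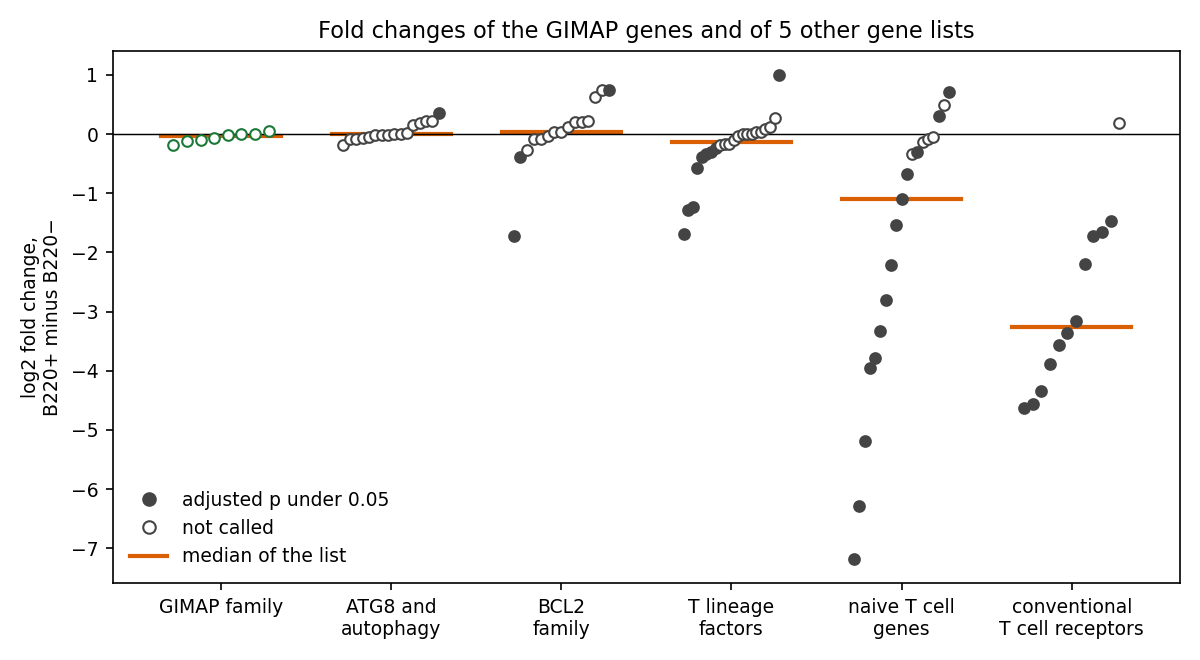
Log2 fold change (B220+ minus B220−) of each tested gene in the GIMAP family and in 5 other lists, filled where the gene was called, with an orange line at the median of each list. The GIMAP points lie within 0.18 of 0 on the log2 scale, while the naive T cell and conventional receptor lists have medians of −1.1 and −3.3. The lists were chosen with earlier results of these data known.

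The genes whose pattern over the 6 libraries was most like that of the family were sought among the 9373 other genes with a mean of at least 10 CPM, by the distance between centred log2 CPM profiles and the median member. The nearest were Plekha2 at a distance of 0.0377, Jak1 at 0.0402, Lypla2 at 0.0405, Ubn1 at 0.0416 and Fbxw2 at 0.0446, with a median distance of 0.288 over all candidates. Opposite-strand genes overlapping Plekha2 had 26.1% and 11.2% as many counts. The members themselves lay at 0.0633 to 0.274, Gimap9 farthest. Jak1, the kinase of cytokine receptors, had 631, 608 and 604 CPM in B220+ libraries and 648, 629.8 and 616 CPM in B220− libraries. These 5 genes had log2 fold changes between −0.07 and −0.03. Their Pearson correlations with the median member ran from 0.924 (Fbxw2) to 0.984 (Plekha2). By Pearson correlation 0 of them were among the nearest 5, so which genes came out nearest depended on the measure.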

How the data were processed

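Total RNA of 6 sorted samples had been made into libraries with a directional kit, per the labels' protocols. The authors deposited raw counts, 1 whole number for each gene and library. Counting with featureCounts 1.6.3 is named in the submitters' processing notes, as are HISAT2 2.1.0 and SAMtools 1.9, Trimmomatic 0.38, FastQC 0.11.7 and the mm10 build. For their options, the annotation, the use of strand and reads with several matches, the status is: not given in the sources used here. Models with coordinates equal to GENCODE M21 made up 98.73% of the table, and that release supplied exons, lengths and sequences. Groups follow the sample titles.

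Counts were tested over the whole table with edgeR 4.0.16 in R 4.3.3: TMM scaling (factors 0.9901 to 1.012), filterByExpr (minimum count 10, minimum total 15; 14722 genes kept), a robust quasi-likelihood fit on the group and Benjamini-Hochberg adjustment over all genes tested, called under 0.05. Log2 fold changes are B220+ minus B220−, CPM use scaled library sizes, and TPM were computed from counts and exonic lengths. The procedure was tested on simulated data. DESeq2 1.42.0 and limma 3.58.1 were alternatives, with other scalings, no filter, thinning to the smallest library, a test against a fold change of 1.5, the replicate block and leaving out each library. Within a group, pairs of libraries had a chi-square per degree of freedom of 7.37 to 16.2, above sampling noise. Each library counted as 1 replicate, although this spread cannot show whether the libraries came from separate mice.

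Deviations of libraries from their group means correlated across genes at 0.411, 0.434 and 0.31 between libraries of the same number, and at −0.372 to −0.0269 otherwise. Deviations within a group cancel out across its libraries, so these values are not independent of each other. Among the tests, the numbers entered only the alternative fit with the replicate block. The main fit and the permutation tests left them out. Any pairing by number comes from the data, not from the labels.

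Beside the 8 members, the text names called list genes with an absolute log2 fold change of at least 1 (at most 4 per list), tested genes within 250 kb, the 5 nearest profiles and Cd3e, Cd4, Cd8a and Cd8b1. Tcf7, Bach2, Il6st, Foxo1, Ikzf2, Ighm, Ighd, Bcl2, Bcl2l11, Bmf, Pmaip1, Gabarapl1, Gabarapl2 and Sqstm1 were added after their values were seen. The same holds for the markers Cd247, Ms4a1, Cd79b, Itgax, Epcam, Fcer1g, Klri2, Emcn, Kdr, Robo4, Tek and Tie1. The members and the 12 lists were chosen with earlier results of these data known.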

Additional observations from a re-analysis of the deposited data

How the results depend on the processing

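Among 14 alternatives, 0 GIMAP members were called except under the replicate block, which called 1 (Gimap9, −0.18, adjusted p 0.0435) and changed no other member's call. Gimap4 was −0.0033 after thinning. With 1 library left out, the log2 fold change ranged from −0.046 to 0.058 for Gimap8, −0.055 to 0.09 for Gimap4 and −0.056 to 0.017 for Gimap3, and the other 5 members kept their sign. The count of all genes called (1639) was 2569 with the replicate block (1303 higher, 1266 lower), 337 against a fold change of 1.5 (85 higher, 252 lower) and 970 to 1789 with a library left out (425 to 966 higher, 545 to 823 lower), with 970 without B220+ replicate 2 and 1029 without B220− replicate 3. Against a fold change of 1.5, 0 naive T cell, 0 BCL2 family, 0 autophagy and 0 neighbouring genes were higher, and 1 BCL2 family gene and 2 transcription factors were lower. With the replicate block, 1 conventional receptor, 3 BCL2 family genes, 2 autophagy genes, 2 transcription factors and 2 neighbours were higher. DESeq2 and the fit with no filter each gave 2 higher BCL2 family genes and 2 higher transcription factors, and limma voom and plain library totals also gave 2 higher transcription factors. With a library left out, counts of higher genes were 1 to 3 (naive), 1 to 2 (BCL2 family), 0 to 1 (autophagy), 1 to 2 (transcription factors) and 0 to 2 (neighbours), and 5 to 7 transcription factors were lower. Shares of the family total without correction for length were 11.1% for Gimap8, 3.81% for Gimap9, 24.1% for Gimap4, 19.7% for Gimap6, 6.96% for Gimap7, 5.94% for Gimap1, 2.99% for Gimap5 and 25.4% for Gimap3, which was then above Gimap4, since longer exons collect more reads. By Pearson correlation, 0 of the 5 nearest genes were shared. The causes of the other changes were not tested. The members had 1466 to 42528 reads per library, and greater depth was not tested.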
